A study of Ovis aries with 49 samples.

Results

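The genes described here are those of vesicle trafficking in the RAB, ARF, VPS, SNX, coatomer, SEC22 to SEC31, VAMP and STX families, 131 of the 10273 probe sets in the table. They were taken by symbol alone, as every probe set named RAB or ARF with a digit, or beginning with VPS, SNX, COPA, COPB, COPE, COPG, COPZ, SEC22, SEC23, SEC24, SEC31, VAMP or STX, a rule that uses symbols and no values. RNA came from adipose tissue of lambs at 28 days and at 7 days, from the epicardial (around the heart), omental, perirenal (around the kidney), sternal and subcutaneous depots. Each depot and age held 5 arrays, except subcutaneous fat at 7 days with 4, which gives 25 arrays at 28 days and 24 at 7 days. The lambs were twins of crossbred ewes, with 1 twin of a pair taken at each age. The study fed some ewes a diet with added canola oil, and which lambs these were is not stated in the labels, where each title carries a letter C without a key. A smaller piece of tissue was extracted at 7 days than at 28 days, so age and amount of tissue cannot be told apart. Replicate numbers are written as letters (H to O for the older lambs, A to G for the younger), and nothing in the labels says that a number is an animal, so a p-value here reflects only how these samples vary, which may be technical. The study's methods take all depots of an age from the same lambs, and the tests treat the arrays as independent, since the labels do not tie arrays to lambs.

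Sheep RNA was hybridised to Affymetrix arrays with human probes, and values are log2 signals after the GCRMA background correction. Of all values 82.7% lay below 4, close to the lowest value of 2.49, and weak binding of sheep RNA to a human probe and low expression cannot be told apart. Levels are therefore compared between groups of 1 gene and never between genes. The tissues were taken whole, and fewer cells of a type and less RNA per cell cannot be told apart. The adipocyte label could hardly be checked, since 5 of 10 adipocyte markers were measured and the fatty acid binding protein FABP4 stayed between 2.49 and 3.18 in all groups. UCP1, the brown fat uncoupling protein, averaged 6.29 ± 1.12 in perirenal fat at 7 days (SD, n = 5). CKM, the creatine kinase of muscle, was high in most epicardial arrays and exceeded 4 in 3 of 5 sternal arrays and 2 of 5 subcutaneous arrays at 28 days, and in 1 sternal and 3 of 4 subcutaneous arrays at 7 days. The mean over all probe sets ran from 3.25 to 3.30 in sternal arrays at 28 days, against 3.38 to 3.44 in the other arrays of that age. It ran from 3.28 to 3.31 in omental and from 3.27 to 3.30 in sternal fat at 7 days, and from 3.30 to 3.32 in subcutaneous fat at 7 days, so these 4 groups were dimmer as a whole than the other groups on average.

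Cells move proteins and lipids between compartments in vesicles. Coats bud the vesicle (COPII at the endoplasmic reticulum, COPI at the Golgi), small GTPases of the ARF family load coats, RAB GTPases mark each compartment and recruit tethers, and paired SNARE proteins (the VAMP, STX and SEC22 families) fuse the membranes. On endosomes, the retromer complex and the sorting nexins (SNX) return cargo, the ESCRT complexes sort cargo for degradation, and the HOPS, CORVET and GARP complexes tether vesicles before fusion. In adipocytes this machinery carries the glucose transporter GLUT4 to the cell surface in response to insulin, and it serves the secretion of adipokines.

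Of the 131 members, 33 were RAB GTPases, 6 RAB effectors or regulators, 4 ARF GTPases, 7 COPI and 6 COPII coat genes, 16 SNAREs and 5 syntaxin-binding proteins. A further 4 were grouped with retromer, 8 belonged to ESCRT, 10 to tethers or their partners, 6 to other VPS-named genes and 21 to the sorting nexins, and 5 were divergent, antisense or pseudogene transcripts by name. The 4 grouped with retromer include VPS35L, a relative of VPS35 that is not a retromer subunit. VPS72 carries a VPS name but encodes a subunit of a chromatin complex. Over the 49 arrays 28 members averaged at least 4, or 21.4% beside 17.1% of all probe sets, and 90 members never exceeded 4. Among those averaging at least 4 were RAB10, which moves GLUT4 vesicles in adipocytes and stayed between 9.17 and 10.03 in all arrays, and RAB1A, ARF4, ARF6, RAB7A, SNX3, RAB5C, SNX2, VPS54, STX8 and COPZ2. In 103 members 1 identical value occurred in at least 10 arrays, which holds for 78.6% of members and 81.7% of all probe sets, and such genes have fewer distinct values than arrays. RAB5C, ARF6 and STX8 had no shared value, and RAB24, RAB1A and RAB1B had 1 value in 2 arrays. The symbols of 124 members were found in the sheep RefSeq annotation. RAB2A and 9 other members were read by probe sets of the type that can bind related transcripts. Another 47 were read by the type whose probes are shared by several transcripts.

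The depots differed in 32 members at 28 days and in 13 at 7 days (limma F test, adjusted p of at most 0.05 over all probe sets). This was 24.4% of members beside 20.0% of all probe sets at 28 days, and 9.92% beside 8.16% at 7 days. After quantile normalization, which gives every array the same distribution, 22 members differed at 28 days beside 12.8% of all probe sets, and 9 at 7 days beside 7.44%. With the replicate number as a block, 26 differed at 28 days beside 16.1% of all probe sets, and 6 at 7 days beside 6.6%. The call at both ages fell on 9 members, which is 28.1% of the calls at 28 days and 69.2% of those at 7 days. They were RAB1A, RAB1B, RAB2A, RAB24, ARF4, STX8, VPS54, SNX2 and SNX4.

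At 28 days omental fat was higher than the mean of the other 4 depots in 12 members beside 4.76% of all probe sets, and perirenal fat in 3 beside 2.87%. Subcutaneous fat was higher in 2 beside 2.58% and epicardial fat in 1, STX5 of the Golgi, beside 2.74%. Sternal fat was lower in 38 members beside 18.4% of all probe sets and higher in 3 beside 1.65%. At 7 days perirenal fat was higher in 6 members beside 4.58% and lower in 2 beside 0.535%. Of 4 brown adipocyte markers 3 were also higher in perirenal fat at 7 days, with a summed level of 19.15 to 23.08, against 11.94 to 18.77 in the other depots. Of 5 fibroblast markers 3 were lower there, with sums of 30.12 to 33.47, against 30.88 to 38.87, and the part of either in the perirenal counts was not tested. Epicardial fat was higher in 3 beside 3.35% and lower in 1 beside 0.720%, and omental fat was higher in 1 beside 0.565% and lower in 1 beside 0.973%. Sternal fat was lower in 1 beside 0.925%, and subcutaneous fat was higher in 1 beside 0.827%. The shares of members lay furthest above those of all probe sets in omental fat at 28 days (9.16% of members) and in the falls of sternal fat at 28 days (29% of members), counted in percentage points on the values as deposited.

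Between 28 and 7 days, members changed most often in omental fat, where 24 were higher at 28 days beside 13.5% of all probe sets and 2 lower beside 1.03%. Of 3 endothelial markers 2 were also higher at 28 days in omental fat, with a summed level of 8.434 to 9.376 at 28 days and 7.968 to 8.082 at 7 days. Of 2 mesothelial markers 0 were called with age there, with overlapping sums of 7.174 to 10.13 at 28 days and 5.976 to 8.959 at 7 days. The part of either marker list in the omental result was not tested. Subcutaneous fat had 9 higher beside 7.68%, epicardial fat 5 higher beside 4.21%, perirenal fat 5 higher beside 6.23% and 3 lower beside 3.09%, and sternal fat 3 higher beside 2.47% and 5 lower beside 3.89%. In all, 44 members changed in at least 1 depot, and RAB24 was the only one called in all 5. The change with age differed between depots for 9 members, 6.87% of members beside 9.17% of all probe sets. After quantile normalization 5 members were called in that test, beside 5.25%, and 2 of them, RAB2A and SNX2, were among the 9. For the change with age, the shares of members called higher and lower both exceeded those of all probe sets in omental fat only on the values as deposited, and in no depot after quantile normalization.

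**Figure D1:**
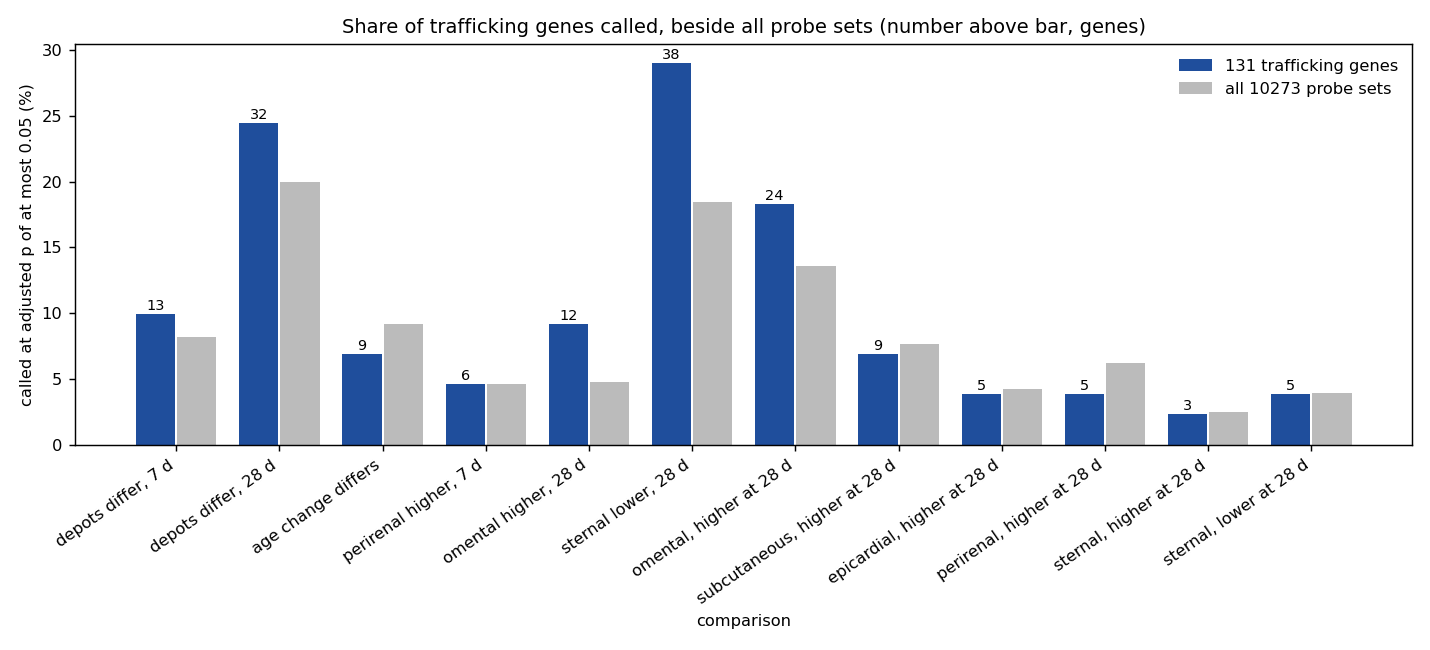
Share of genes called (vertical axis, percent, limma with adjusted p no higher than 0.05) in 12 comparisons (horizontal axis) for the 131 trafficking genes (blue) and all 10273 probe sets (grey), with the number of genes above the blue bars. Blue stands highest for the 38 genes lower in sternal fat at 28 days and for the 32 that differed between depots at that age.

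Most of these counts moved with the scaling of the arrays. After quantile normalization 13 members were higher in sternal fat at 28 days, beside 5.85% of all probe sets, and 2 were lower, beside 3.45%, in place of 3 higher and 38 lower. The 38 lower members came from most roles, with 10 of 33 RAB GTPases, 7 of 21 sorting nexins, 3 of 16 SNAREs, 3 of 7 COPI and 2 of 6 COPII genes, 2 of 4 genes grouped with retromer and 1 of 8 ESCRT genes. The 2 that were lower under both scalings were SNX2 and STX8, and 8 of the 38 turned sign. VAMP4 and SNX1 were called in opposite directions, with VAMP4 at -0.21 on the values as deposited and 0.23 after quantile normalization. Of the 12 members higher in omental fat at 28 days 8 were called after quantile normalization, beside 2.17% of all probe sets, and these were ARF4, COPB2, RAB1A, RAB27A, RAB28, RAB5C, RAB8B and SNX2. Of the 24 that were higher at 28 days in omental fat 4 were called under both scalings, RAB24, RAB2A, COPZ2 and SNX6, beside 3.84% of all probe sets, and 6 members were then lower, beside 3.64%. COPB2, RAB27A and SNX6 lay near the lowest signal, with 1 identical value in 34, 22 and 32 of the 49 arrays. The median difference over the members was -0.090 in sternal fat at 28 days beside -0.074 over all probe sets, and -0.0056 beside -0.0026 after quantile normalization.

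At 7 days epicardial fat turned from mostly higher to mostly lower with the scaling. After quantile normalization VPS28 alone was higher there, beside 2.18% of all probe sets, and 8 members were lower, beside 2.22%, which were ARF4, COPB1, RAB5C, RAB7A, SNX2, SNX3, STX16 and VPS54. At 28 days 4 were then lower in epicardial fat (COPB1, COPZ2, RAB5C and SNX1), beside 1.32%. Omental fat at 7 days had 4 higher beside 1.03% (COPB1, SNX2, SNX21 and STX16), and perirenal fat had 1 higher beside 1.87% and 2 lower beside 0.788%. Sternal and subcutaneous fat at 7 days had 1 higher each, VPS54 beside 0.740% and SNX4 beside 0.818%. At 28 days perirenal fat had 2 higher beside 1.95% and 1 lower beside 0.642%, and subcutaneous fat had 1 higher beside 1.57%. Of the genes named here, STX16 held an identical 4.09 in 26 of the 49 arrays. On the values as deposited it differed by 0.00013 in epicardial and 0.012 in omental fat at 7 days, and neither was called.

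With age, after quantile normalization, sternal fat had 6 higher at 28 days beside 3.33% of all probe sets (RAB24, STX17-DT, VPS28, COPZ2, SEC31A and STX16) and 4 lower beside 3.98%. Subcutaneous fat had 3 higher beside 2.42% (COPZ2, RAB24 and RAB2A) and 2 lower beside 2.38%. Epicardial fat had 2 higher beside 2.63% and 2 lower beside 2.32%, and perirenal fat had 1 higher beside 4.25% and 4 lower beside 3.75%. The 9 rises in subcutaneous fat thus stood beside 3 under this scaling, and the 3 in sternal fat beside 6.

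**Figure D2:**
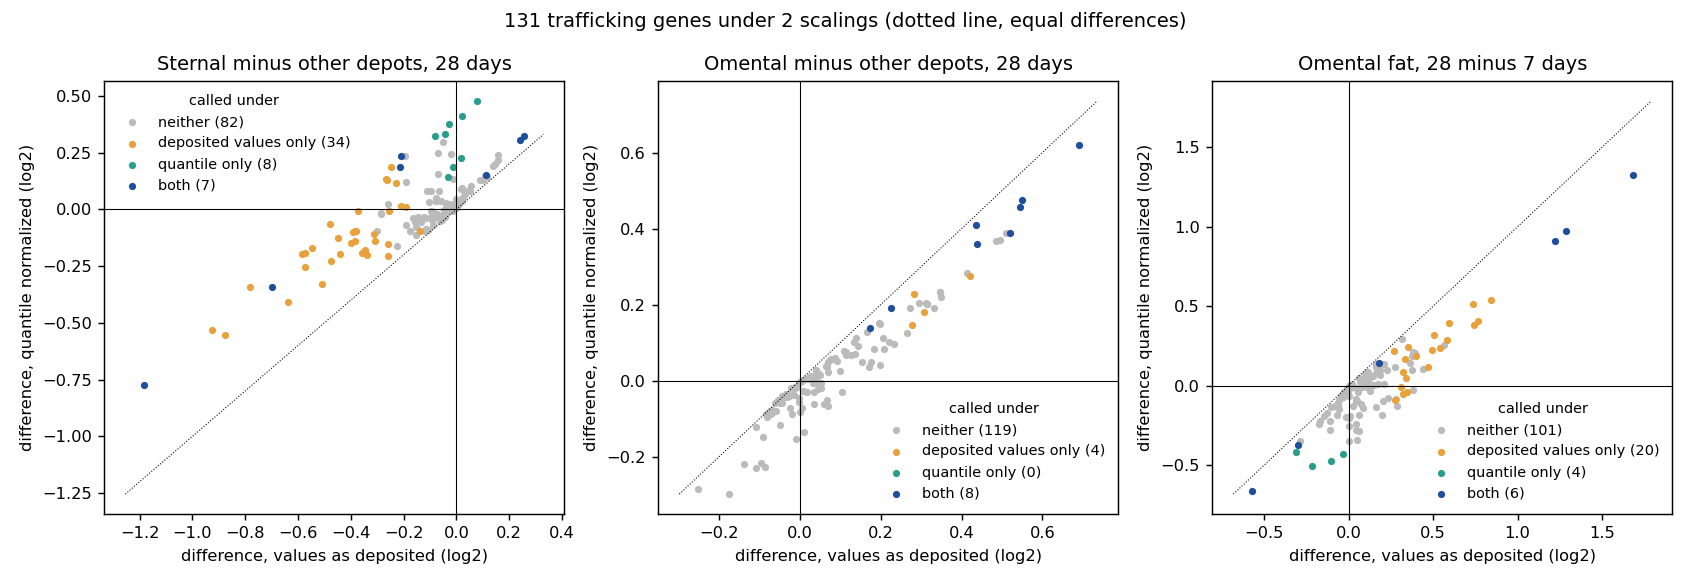
Differences of the 131 genes on the values as deposited (horizontal axis, log2) and after quantile normalization (vertical axis, log2) in sternal and omental fat against the other depots at 28 days, and in omental fat between 28 and 7 days. The dotted line marks equal differences, most sternal points lie above it, and colours give the scaling under which a gene was called. In the sternal panel VAMP4 and SNX1 are called under both, in opposite directions.

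Muscle markers also differed in sternal fat at 28 days, and their part in the sternal result was not tested. Of 8 measured skeletal muscle markers 4 were higher in sternal fat at 28 days, with a summed level between 22.5 and 66.1 in sternal arrays, against 22.1 to 23 in omental and perirenal, 22.5 to 30.2 in epicardial and 22.3 to 37.1 in subcutaneous arrays. Among 5 fibroblast markers 3 were higher. Leaving out arrays of sternal or subcutaneous fat whose CKM exceeded 4 keeps 2 sternal and 3 subcutaneous arrays at 28 days and 1 subcutaneous array at 7 days. Then 11 members were lower in sternal fat and 2 higher, while 9.81% of all probe sets were called there in either direction. The 11, all among the 38, were STX8, COPZ2, SNX12, VPS54, ARF6, RAB24, RAB2A, ARF5, RAB8B, VPS13D and SNX4. A test on fewer arrays also tends to call fewer genes. The count of 38 fell to 23 without sternal replicate J and to 25 without sternal replicate I.

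Among the RAB GTPases, RAB24, an atypical RAB linked to autophagy, was higher at 28 days than at 7 days in every depot. In omental fat it measured 6.04, 5.39, 5.54, 5.40 and 5.64 at 28 days in replicates I, J, M, N and O, against 3.67, 3.76, 3.86, 3.97 and 4.34 at 7 days in replicates A, D, G, C and E. In subcutaneous fat it measured 5.39, 5.52, 4.58, 4.86 and 5.04 at 28 days, against 4.16, 4.12, 4.19 and 4.12 at 7 days. In epicardial fat the values were 5.71, 5.19, 5.38, 5.69 and 4.93 at 28 days and 4.78, 4.43, 4.61, 4.73 and 4.43 at 7 days. The ages did not overlap in these 3 depots, nor in perirenal fat, where RAB24 averaged 5.34 ± 0.33 at 28 days and 4.78 ± 0.15 at 7 days (SD, n = 5 each). They overlapped in sternal fat, with 4.31 to 4.96 at 28 days and 3.40 to 4.71 at 7 days. The difference was 1.68 in omental (standard error 0.18, adjusted p = 2.56e-08 in limma), 0.93 in subcutaneous (0.19, adjusted p = 0.0015) and 0.78 in epicardial fat (0.18, adjusted p = 0.00502). It was 0.59 in sternal (adjusted p = 0.0441) and 0.56 in perirenal fat (adjusted p = 0.0442). The sternal call was lost without any 1 of sternal replicates D, F, G, E, I, M or N (adjusted p up to 0.199) and without the arrays with CKM above 4 (adjusted p = 0.256). The perirenal call was lost without any 1 of perirenal replicates D, G, C, M, N or K (adjusted p up to 0.169) and after quantile normalization. The size of the change differed between depots (adjusted p = 0.012), a call that quantile normalization ended (adjusted p = 0.2).

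At 7 days RAB24 was already spread between depots, with 4.96, 4.70, 4.59, 4.91 and 4.75 in perirenal replicates A, D, G, B and C, against a median of 4.12 (3.40 to 4.78) in the other depots. The difference was 0.62 (standard error 0.13, adjusted p = 0.00779), or 0.48 after quantile normalization (adjusted p = 0.0577). At 28 days the sternal arrays measured 4.58, 4.33, 4.67, 4.96 and 4.31, against a median of 5.40 (4.58 to 6.04) elsewhere. The sternal difference of -0.78 (standard error 0.15, adjusted p = 0.000952) was -0.34 after quantile normalization (adjusted p = 0.19). The order of depot means thus differed between the ages, with omental fat highest at 28 days and lowest at 7 days, where omental and sternal arrays overlapped. After quantile normalization the F test over depots did not call RAB24 at 28 days (adjusted p = 0.197) or at 7 days (adjusted p = 0.0539).

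**Figure D3:**
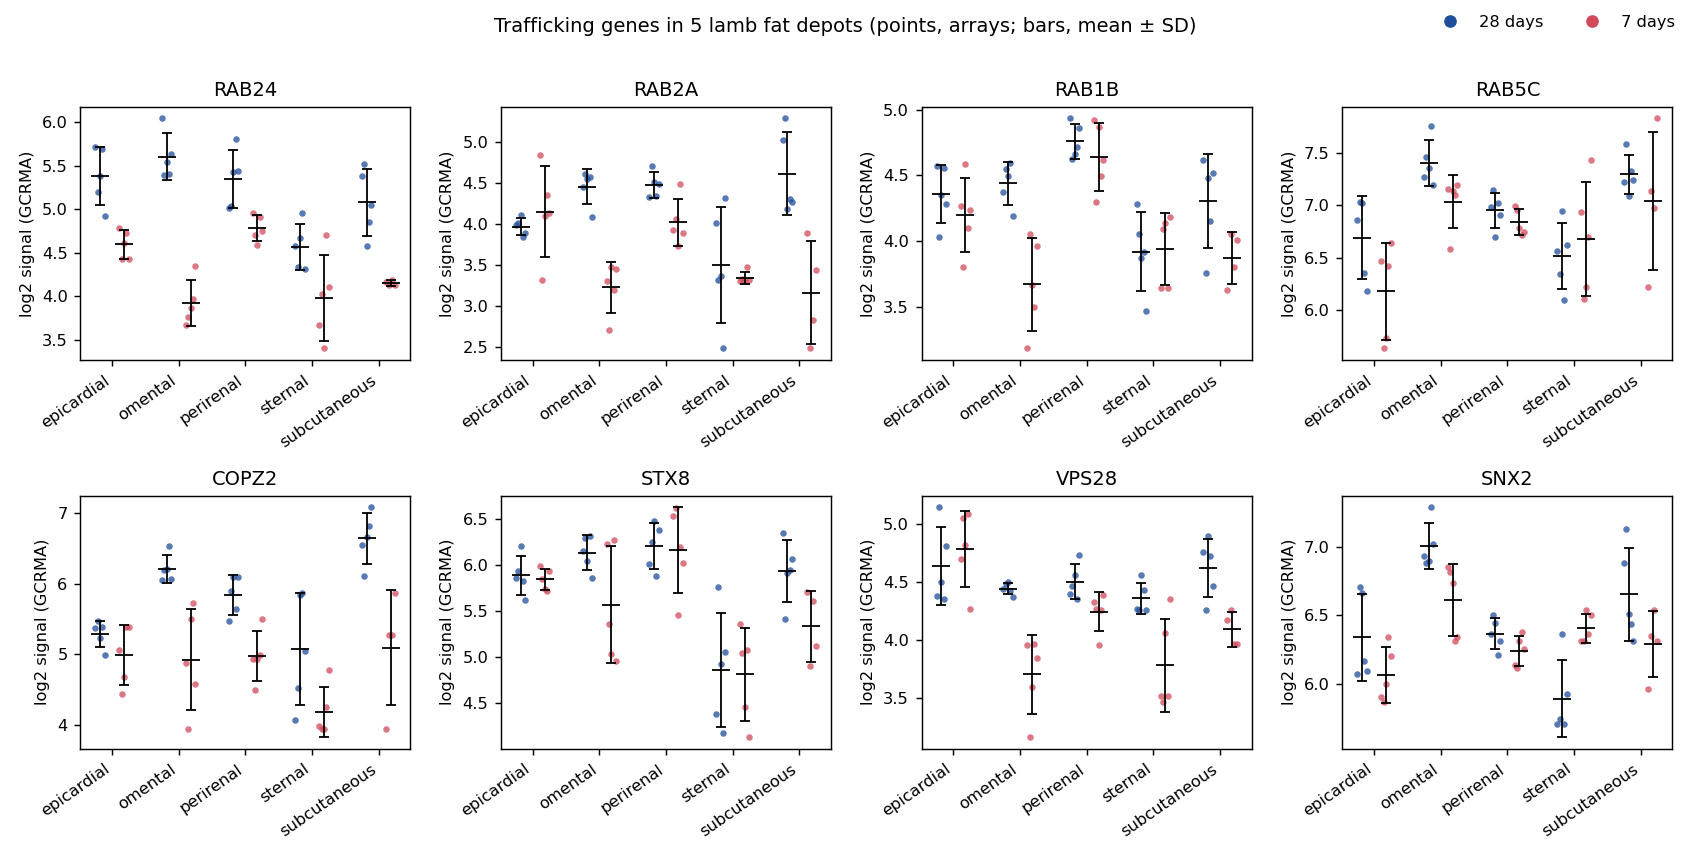
Signal (vertical axes, log2 after GCRMA) of 8 trafficking genes in the 5 depots (horizontal axes) at 28 days (blue, left of each pair) and 7 days (red, right). Points are arrays and bars give mean ± SD with n = 5, or 4 for subcutaneous fat at 7 days. RAB24 averages 5.60 in omental fat at 28 days and 3.92 at 7 days, and STX8 is low in sternal fat at both ages.

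RAB2A, a Golgi RAB of early secretory and lysosomal traffic, rose in omental and subcutaneous fat. In subcutaneous fat it measured 5.02, 5.28, 4.18, 4.31 and 4.26 at 28 days in replicates H, I, J, M and N, against 3.90, 2.49, 2.84 and 3.44 at 7 days in replicates A, F, G and E. In omental fat it measured 4.45, 4.60, 4.55, 4.57 and 4.09 at 28 days, against 3.31, 2.71, 3.48, 3.20 and 3.45 at 7 days. No array at 28 days fell into the range at 7 days in either depot. The change was 1.45 in subcutaneous (standard error 0.26, adjusted p = 0.000317) and 1.22 in omental fat (0.25, adjusted p = 0.000475), and both were called after quantile normalization at 1.22 and 0.91. In epicardial fat RAB2A averaged 3.97 ± 0.10 at 28 days and 4.15 ± 0.55 at 7 days, and the difference of -0.18 did not pass (adjusted p = 0.876). The change differed between depots (adjusted p = 0.00439, and 0.0364 after quantile normalization). At 28 days the 5 sternal arrays spread from 2.49 to 4.31 and averaged 0.88 below the other depots (standard error 0.19, adjusted p = 0.00271, and 0.0961 after quantile normalization).

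RAB1A and RAB1B, a pair that acts between the endoplasmic reticulum and the Golgi, moved in opposite directions in perirenal fat at 7 days. RAB1B measured 4.92, 4.30, 4.87, 4.50 and 4.61 in perirenal replicates A, D, G, B and C, against a median of 4.01 (3.18 to 4.59) in the other depots. RAB1A measured 9.24, 9.24, 9.0, 9.30 and 9.19 in the same arrays, against a median of 9.77 (9.26 to 10.46). The differences were 0.72 for RAB1B (standard error 0.14, adjusted p = 0.00297) and -0.56 for RAB1A (0.12, adjusted p = 0.00832), and after quantile normalization 0.58 (adjusted p = 0.0257) and -0.44 (adjusted p = 0.0558). At 28 days RAB1B was again high in perirenal fat, where its lowest array at 4.62 equalled the highest of the other depots to 2 decimals. That difference of 0.50 (standard error 0.12, adjusted p = 0.0194) lost its call without perirenal replicate I or K (adjusted p up to 0.0679), after quantile normalization and without the arrays with CKM above 4. RAB1A was then highest in omental fat, with 9.99, 10.02, 9.85, 10.45 and 9.96, against a median of 9.45 (9.07 to 10.12), a difference of 0.55 (0.13, adjusted p = 0.0119) that was lost without omental replicate N (adjusted p = 0.0677). RAB1B also rose with age in omental fat by 0.77 (0.16, adjusted p = 0.000752), or 0.40 after quantile normalization (adjusted p = 0.161).

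RAB5C and RAB7A act on endosomes. RAB5C, of early endosomes, measured 7.27, 7.46, 7.36, 7.76 and 7.19 in omental fat at 28 days, against a median of 6.96 (6.10 to 7.59) in the other depots (difference 0.54, standard error 0.13, adjusted p = 0.015). The call was lost without omental replicate N (adjusted p = 0.0776) and without the arrays with CKM above 4 (adjusted p = 0.0623). RAB7A, of late endosomes and lysosomes, measured 8.03, 8.09, 7.86, 8.17 and 8.12 in perirenal fat at 28 days in replicates I, J, M, N and K, against a median of 7.46 (6.89 to 8.17) in the other depots. It was higher there by 0.55 (standard error 0.14, adjusted p = 0.026), and at 28 than at 7 days in perirenal fat by 0.53 (0.16, adjusted p = 0.024). The depot call was lost without perirenal replicate I, J, N or K (adjusted p up to 0.0802) and the age call without perirenal replicate D, G, C, N or K (adjusted p up to 0.0643). In epicardial fat at 7 days RAB5C differed by -0.72 (adjusted p = 0.0572) and RAB7A by -0.29 (adjusted p = 0.15), and after quantile normalization both were called there, at -0.86 (adjusted p = 0.0159) and -0.45 (adjusted p = 0.0276). RAB8B, of traffic to the cell surface, was higher in omental fat at 28 days by 0.52 (0.10, adjusted p = 0.004), with 4.03 to 4.27 in omental arrays and a median of 3.53 (3.01 to 4.32) elsewhere.

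Smaller differences lay near the lowest signal. RAB28, which is linked to cilia, was higher by 0.44 in omental fat at 28 days (adjusted p = 0.00111), with values of 2.76 to 3.56 and an identical 2.76 in 24 of the 49 arrays, and it was 0.36 after quantile normalization (adjusted p = 0.00491). RAB3A, of regulated secretion, rose by 0.31 in epicardial fat (adjusted p = 0.0427), RAB35, of endocytic recycling, by 0.34 in subcutaneous fat (adjusted p = 0.0417), and RAB33B, of the Golgi, fell by 0.47 in sternal fat (adjusted p = 0.0156). The RAB3A call was lost without any 1 of 7 epicardial arrays (A, D, G, C, I, N or O, adjusted p up to 0.216), that of RAB35 without subcutaneous replicate A, F, G, J, M or N (up to 0.202) and that of RAB33B without sternal replicate F or G (up to 0.112). None of the 6 RAB effectors and regulators averaged at least 4.

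ARF6, which acts at the plasma membrane and in endocytic recycling, rose in the same depots as RAB2A. It measured 8.54, 8.80, 8.93, 8.89 and 8.84 in subcutaneous fat at 28 days, against 7.76, 8.15, 8.30 and 8.20 at 7 days. In omental fat it measured 8.86, 8.51, 8.73, 8.82 and 8.60 at 28 days, against 8.23, 7.89, 8.37, 8.16 and 7.20 at 7 days. The ages did not overlap in either depot. The change was 0.73 in omental (standard error 0.18, adjusted p = 0.00352) and 0.69 in subcutaneous fat (0.19, adjusted p = 0.0151). Neither was called after quantile normalization (adjusted p = 0.0713 and 0.0775), and the subcutaneous call was lost without subcutaneous replicate A (adjusted p = 0.0781). Without the arrays with CKM above 4 the subcutaneous change of ARF6 was 0.57 (adjusted p = 0.429), but 1 array was then left at 7 days, whose spread is taken from the other groups. In the other 3 depots the difference lay between -0.07 and 0.11 and did not pass. ARF5, of the Golgi, measured 3.67, 4.27, 4.45, 4.06 and 4.33 in omental fat at 28 days, against 3.41, 3.46, 2.71, 3.52 and 3.46 at 7 days, with no overlap (0.84, adjusted p = 0.000383, and 0.54 with adjusted p = 0.0667 after quantile normalization). ARF4, a Golgi ARF, was tight in omental fat at 28 days, with 10.39, 10.37, 10.40, 10.48 and 10.38, all above the highest of the other depots at 10.30. That difference of 0.44 (standard error 0.07, adjusted p = 0.000613) was 0.41 after quantile normalization (adjusted p = 0.0322). At 7 days ARF4 was low in epicardial fat, at 9.22 to 9.85 against a median of 9.96 (9.53 to 10.34), by -0.38 (0.11, adjusted p = 0.0446). That call was lost when any 1 of 17 of the 24 arrays was left out (adjusted p up to 0.157).

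Of the coats, COPZ2, the zeta subunit of one form of coatomer, changed most. In subcutaneous fat it measured 6.54, 6.10, 6.67, 6.81 and 7.08 at 28 days in replicates H, I, J, M and N, against 3.94, 5.27, 5.27 and 5.86 at 7 days in replicates A, F, G and E. In omental fat the values were 6.04, 6.19, 6.20, 6.53 and 6.07 at 28 days and 4.87, 3.94, 5.50, 5.72 and 4.58 at 7 days. The ages did not overlap in either depot. The rise was 1.55 in subcutaneous (standard error 0.32, adjusted p = 0.0012) and 1.28 in omental fat (0.30, adjusted p = 0.00217), and both were called after quantile normalization at 1.36 and 0.97. In perirenal and sternal fat the differences of 0.87 and 0.89 did not pass (adjusted p = 0.0588 and 0.0692), though after quantile normalization COPZ2 was called in sternal fat (0.95, adjusted p = 0.0337), and the change with age was not called as different between depots. Among the depots at 28 days subcutaneous fat was higher by 1.04 (0.20, adjusted p = 0.00537), or 0.99 after quantile normalization (adjusted p = 0.0114). Without the arrays with CKM above 4, COPZ2 in subcutaneous fat differed by 1.01 from the other depots (adjusted p = 0.0555) and by 1.30 with age (adjusted p = 0.186). Neither was called, and the age test then rests on 1 array at 7 days, assumed to vary like the other groups. Sternal arrays at 28 days were split, with 4.07, 4.52, 5.83, 5.87 and 5.05.

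The other coat genes moved less. COPE of coatomer was higher by 0.23 in subcutaneous fat at 28 days (adjusted p = 0.0396), COPG2 and COPB2 were higher by 0.28 and 0.17 in omental fat (adjusted p = 0.0447 and 0.0144). The COPB2 call was lost without omental replicate N (adjusted p = 0.0619), and those of COPE and COPG2 without any 1 of 12 and 19 of the 25 arrays (adjusted p up to 0.132 and 0.159). COPB2 and COPG2 averaged 2.54 and 2.68 over the 49 arrays, near the lowest signal. The COPII genes SEC23B and SEC24B, which bud cargo from the endoplasmic reticulum, were lower in sternal fat at 28 days by 0.58 (adjusted p = 0.0109) and 0.38 (adjusted p = 0.0216). SEC23B measured 4.27 in 4 sternal arrays and 3.21 in replicate O, without which its call was lost (adjusted p = 0.065), and that of SEC24B was lost without sternal replicate I or N (adjusted p up to 0.0789). Neither was called after quantile normalization.

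STX8, a SNARE of late endosomes, was the member that stood lowest in sternal fat. At 28 days it measured 4.39, 5.76, 4.92, 4.17 and 5.05 in sternal replicates I, J, M, N and O, against a median of 6.03 (5.42 to 6.48) in the other depots. At 7 days it measured 5.36, 5.04, 4.46, 5.07 and 4.13 in sternal replicates D, F, G, B and E, against a median of 5.75 (4.91 to 6.62). All but 1 sternal array at 28 days lay below every array of the other depots. The difference was -1.18 at 28 days (standard error 0.17, adjusted p = 4.74e-05) and -0.92 at 7 days (0.22, adjusted p = 0.0414). At 28 days it was -0.77 after quantile normalization (adjusted p = 0.00338) and -1.39 without the arrays with CKM above 4 (adjusted p = 0.000259), and the call held without any single array (adjusted p up to 0.00042). At 7 days the call was lost without any 1 of 15 of the 24 arrays (adjusted p up to 0.152) and after quantile normalization. STX8 in perirenal fat at 7 days was higher by 0.77 (adjusted p = 0.0446), and that call was lost without any 1 of 16 arrays (adjusted p up to 0.147).

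VAMP4, a SNARE of the trans-Golgi network, rose with age in omental fat by 0.32 (standard error 0.07, adjusted p = 0.000532), with 5.25, 5.12, 5.18, 5.16 and 5.29 at 28 days, against 4.89, 4.89, 4.80, 4.89 and 4.89 at 7 days. The value 4.89 was shared by 23 of the 49 arrays, and after quantile normalization the difference was -0.05. STX5, of traffic between the endoplasmic reticulum and the Golgi, rose by 0.22 in epicardial fat (adjusted p = 0.0135), and without epicardial replicate O the adjusted p was 0.0599. After quantile normalization neither this rise (0.17, adjusted p = 0.126) nor its epicardial difference at 28 days (0.17, adjusted p = 0.0537) was called. STX5 lay near the lowest signal, with an identical 2.58 in 26 of the 49 arrays. Among the syntaxin-binding proteins STXBP5 rose by 0.26 in perirenal fat (adjusted p = 0.0014), and STXBP2 rose by 0.53 in subcutaneous fat (adjusted p = 0.0135), which was lost without subcutaneous replicate E or M (adjusted p up to 0.0659). No STXBP5 value exceeded 2.93.

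Of the ESCRT genes, VPS28 of the ESCRT-I complex differed most at 7 days, where epicardial fat stood apart. It measured 4.69, 5.05, 4.82, 5.09 and 4.27 in epicardial replicates A, D, G, C and E, against a median of 3.96 (3.16 to 4.39) in the other depots. The difference was 0.83 (standard error 0.15, adjusted p = 0.00114), or 0.67 after quantile normalization (adjusted p = 0.0139). All 4 measured cardiac muscle markers were higher in epicardial fat at 7 days too, with a summed level of 29.63 to 44.47, against 10.81 to 12.23 in omental, perirenal and sternal and 10.83 to 30.39 in subcutaneous arrays, and their part in the VPS28 result was not tested. With age VPS28 rose in omental fat, to 4.44, 4.49, 4.50, 4.43 and 4.37 at 28 days, against 3.96, 3.16, 3.59, 3.96 and 3.84 at 7 days, with no overlap (0.74, standard error 0.16, adjusted p = 0.000862, and 0.38 with adjusted p = 0.17 after quantile normalization). It also rose in sternal fat by 0.58 (adjusted p = 0.0178) and in subcutaneous fat by 0.53 (adjusted p = 0.0388). The sternal call was lost without sternal replicate D, F, B or M (adjusted p up to 0.071), and the subcutaneous call without subcutaneous replicate A, G, E, H, J or M (adjusted p up to 0.108). In epicardial fat VPS28 differed by -0.15 between the ages, which did not pass (adjusted p = 0.796). The change differed between depots (adjusted p = 0.0383), but not after quantile normalization (adjusted p = 0.0727) or without any 1 of 11 epicardial or omental arrays (adjusted p up to 0.082).

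VPS54, a subunit of the GARP tether of the trans-Golgi network, was lower in sternal fat at 28 days than at 7 days. It measured 5.06, 5.90, 5.74, 5.97 and 6.15 at 28 days, against 6.40, 6.15, 6.08, 6.49 and 6.15 at 7 days. Only replicate O at 28 days reached the range at 7 days, and the fall was 0.49 (standard error 0.14, adjusted p = 0.022). In the other depots VPS54 was higher at 28 days by 0.19 to 0.38, none of them called, and the change differed between depots (adjusted p = 0.00532, and 0.0637 after quantile normalization). The sternal fall was called after quantile normalization (-0.39, adjusted p = 0.0441) and lost without sternal replicate D, B or I (adjusted p up to 0.157). VPS39 of the HOPS tether rose in subcutaneous fat by 0.50 (adjusted p = 0.0114), but at 2.93 to 3.80 it lay near the lowest signal. VPS41, of the same tether, was at 2.49 in all 5 omental arrays at 28 days, against 2.49 to 3.94 at 7 days (-0.57, adjusted p = 0.00372). VPS51, of the GARP and EARP tethers, rose in omental fat by 0.27 (adjusted p = 0.00256), with a difference of -0.09 after quantile normalization.

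The retromer subunits VPS35 and VPS29 were lower in sternal fat at 28 days by 0.37 and 0.27 (adjusted p = 0.0254 and 0.0394), and VPS29 turned to 0.13 after quantile normalization. The VPS35 call was lost without sternal replicate O (adjusted p = 0.143), and that of VPS29 without any 1 of 7 arrays (adjusted p up to 0.197). VPS13B, a lipid transfer protein like VPS13D, rose in epicardial fat by 0.46 (adjusted p = 0.0335), at 3.13 to 3.81 at 28 days and 2.49 to 3.26 at 7 days, and that call was lost without epicardial replicate D, C, E, I, J or N (adjusted p up to 0.178). VPS13D, a lipid transfer protein, fell with age in sternal fat by 0.36 (adjusted p = 0.0492), a call that was lost without any 1 of 36 of the 49 arrays (adjusted p up to 0.248).

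Among the sorting nexins, SNX2, which forms tubules with retromer, separated omental from sternal fat at 28 days. It measured 6.93, 6.88, 6.90, 7.29 and 7.02 in omental replicates I, J, M, N and O, against a median of 6.34 (5.71 to 7.13) in the other depots. In sternal fat it measured 5.71, 5.75, 6.37, 5.71 and 5.93, against a median of 6.51 (6.07 to 7.29) in the other depots. Every omental array stood above every sternal array, and the omental values overlapped those of subcutaneous fat. The differences were 0.69 for omental (standard error 0.12, adjusted p = 0.00156) and -0.70 for sternal fat (0.12, adjusted p = 0.000406). After quantile normalization they were 0.62 (adjusted p = 0.000383) and -0.34 (adjusted p = 0.0195), and without the arrays with CKM above 4 the sternal difference was -0.58 (adjusted p = 0.0698).

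SNX2 fell with age in sternal fat, to 5.71, 5.75, 6.37, 5.71 and 5.93 at 28 days, against 6.32, 6.32, 6.54, 6.37 and 6.50 at 7 days. The fall was 0.51 (standard error 0.14, adjusted p = 0.0173), and it was lost without sternal replicate I or N (adjusted p up to 0.0594) and without the arrays with CKM above 4 (adjusted p = 0.375). In the other depots SNX2 was higher at 28 days by 0.13 to 0.39, none of them called. The change differed between depots (adjusted p = 0.00671, and 0.0437 after quantile normalization), and without the arrays with CKM above 4 this was not called (adjusted p = 0.192).

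SNX4, of recycling endosomes and autophagy, separated depots at 7 days. It measured 6.06, 6.44, 6.14 and 5.89 in subcutaneous replicates A, F, G and E, against a median of 5.50 (4.59 to 6.21) in the other depots. In perirenal fat it measured 4.59, 5.41, 5.50, 5.49 and 5.20, against a median of 5.54 (5.45 to 6.44) in the other depots. The differences were 0.60 for subcutaneous (standard error 0.14, adjusted p = 0.0314) and -0.52 for perirenal fat (0.13, adjusted p = 0.0203), and both were called after quantile normalization. The subcutaneous call was lost without subcutaneous replicate A, F or G (adjusted p up to 0.121) and the perirenal call without perirenal replicate A (adjusted p = 0.0968). SNX22 rose in omental fat by 0.59 (adjusted p = 0.000513, and 0.39 with adjusted p = 0.0632 after quantile normalization), at 3.37 to 3.72 at 28 days and 2.49 to 3.37 at 7 days. SNX12 was lower in sternal fat at 28 days by 0.64 (standard error 0.14, adjusted p = 0.00183), with every sternal array, at 2.49 to 3.36, below every other array, at 3.46 to 4.38. After quantile normalization SNX12 differed by -0.41 (adjusted p = 0.0683).

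STX17-DT, a divergent transcript next to the autophagy SNARE gene STX17, was highest in epicardial fat at 7 days, with 6.00, 6.46, 6.76, 6.44 and 6.36, against a median of 5.98 (4.90 to 6.20) in the other depots (0.53, standard error 0.13, adjusted p = 0.0223). It rose with age in sternal fat by 0.61 (0.16, adjusted p = 0.0126). The calls were lost without epicardial replicate D, G or C and without sternal replicate G, I or N, with adjusted p up to 0.118 and 0.0909. After quantile normalization the epicardial difference was 0.36 (adjusted p = 0.117) and the sternal rise was 0.65 (adjusted p = 0.00734). The symbol STX17-DT was not among those of the sheep annotation, so what its probes bind in sheep RNA is not known.

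The change with age of the 9 members that differed between depots falls into 3 patterns in the plot of change by depot. On the values as deposited RAB2A and ARF6 rose in omental and subcutaneous fat, and RAB28 and VAMP4 rose in omental fat. After quantile normalization the RAB2A rises were called, those of ARF6 and RAB28 (0.17, adjusted p = 0.287) were not, and VAMP4 turned sign. RAB24 and VPS28 rose in all 5 and in 3 depots. Quantile normalization ended the RAB24 call in perirenal fat and the VPS28 calls in omental and subcutaneous fat. SNX2, VPS54 and VPS13D fell in sternal fat and were called in no other depot. The test of a difference between depots was lost for ARF6 without any 1 of 33 of the 49 arrays (adjusted p up to 0.0725), for RAB28 without any 1 of 12 (up to 0.113) and for VPS13D without any 1 of 11 (up to 0.098). After quantile normalization it called only RAB2A and SNX2 of the 9.

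**Figure D4:**
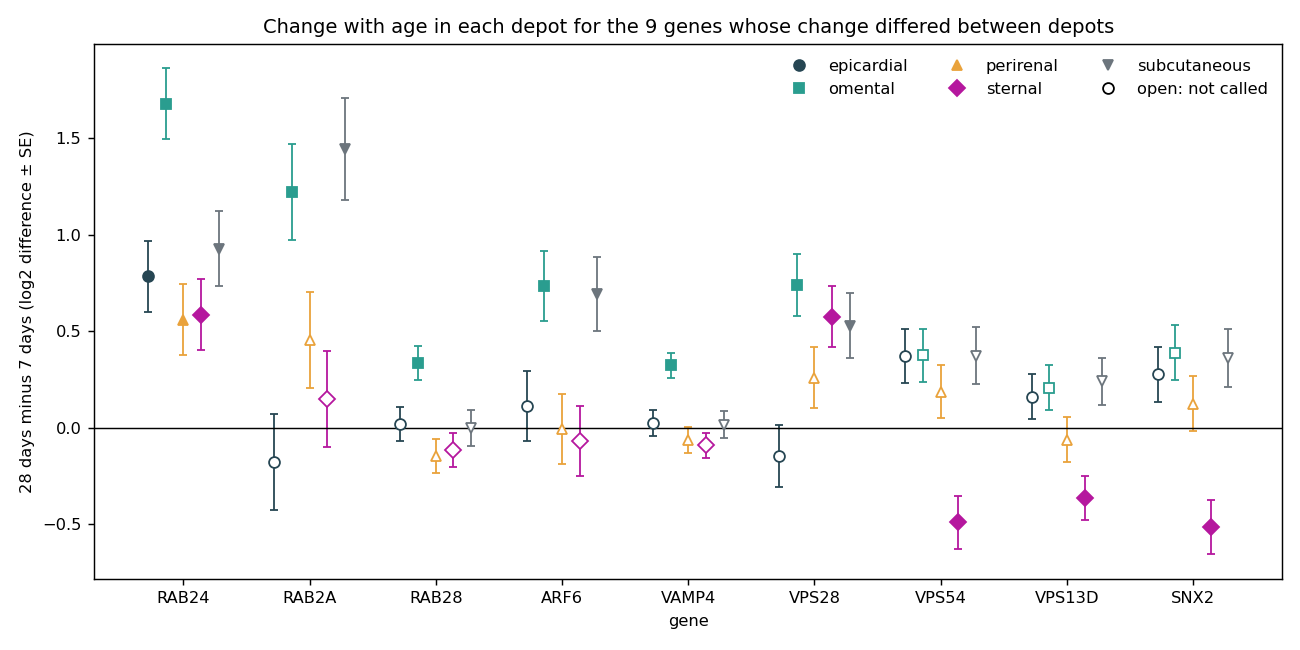
Difference between 28 and 7 days (vertical axis, log2, ± standard error in limma) for 9 trafficking genes (horizontal axis) in the 5 depots (colours and symbols), with filled symbols for calls at an adjusted p of at most 0.05. RAB24 lies above 0 in all depots, up to 1.68 in omental fat, and SNX2, VPS54 and VPS13D are filled below 0 in sternal fat.

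Other genes of the pathway, 120 of 190 listed and measured outside the families above, were counted in the same tests. At 28 days 37 differed between depots (20.0% of all probe sets did), with 13 higher in omental fat (beside 4.76%) and 0 lower, and 37 lower in sternal fat (beside 18.4%) and 0 higher. At 7 days 17 differed (beside 8.16%), with 10 higher in perirenal fat (beside 4.58%) and 0 lower. In omental fat 38 were higher at 28 days than at 7 days (beside 13.5%) and 1 was lower (beside 1.03%). Of 24 genes of clathrin, its adaptors and dynamin, 10 were higher at 28 days in omental fat and 10 lower in sternal fat at 28 days. After quantile normalization 3 and 2 of them were called, so these lists moved with the scaling as the members did. Of 22 subunits of the exocyst, COG and TRAPP tethers 8 were higher at 28 days in omental fat, and after quantile normalization 0 were higher and 1 was lower. In perirenal fat at 7 days 4 of these 22 were higher, and 0 after quantile normalization. Of 9 genes of insulin-responsive GLUT4 vesicles 4 were higher at 28 days in omental fat, and 1 after quantile normalization.

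Examples of these differences follow. In omental fat at 28 days PICALM, a clathrin assembly protein, was higher by 1.39 (standard error 0.23, adjusted p = 0.000766), AP1S2 of the AP-1 adaptor by 0.78 (0.15, adjusted p = 0.0023) and TMED2, a cargo receptor between the endoplasmic reticulum and the Golgi, by 0.61 (0.08, adjusted p = 8.26e-05). Between the ages in omental fat RUFY1, an endosomal effector of RAB4 in human cells, rose by 1.41 (0.17, adjusted p = 1.69e-07), and NSF, the ATPase that recycles SNAREs, by 1.18 (0.22, adjusted p = 0.000162). In perirenal fat at 7 days AP1B1 was higher by 0.50 (0.07, adjusted p = 0.000227) and TRAPPC5 of the TRAPP tether by 0.60 (0.13, adjusted p = 0.00879). After quantile normalization TRAPPC5 was not called there, and of the clathrin list 1 gene was higher in place of 2.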

How the data were processed

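The authors hybridised total RNA of lamb fat to Human Genome U133 Plus arrays and deposited log2 values from GCRMA (affy package), a procedure of background correction, normalization and summary per probe set, whose versions are not stated. There were 10273 probe sets and 49 arrays. In the platform annotation 9780 probe sets had 1 symbol, 6 several and 487 none, and only those with 1 were named.

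Tests used limma 3.58.1 in R 4.3.3 (statmod 1.5.0) on the deposited log2 values, with 1 model per age over 5 depots and 1 over all 10 groups for age. P-values were Benjamini-Hochberg adjusted over all probe sets within a comparison, and called at 0.05 or less. The procedure was tested on simulated data. Alternatives were the replicate number as a block, quantile normalization, a mean of at least 4, no sternal or subcutaneous arrays with CKM above 4, other models and leaving out each array.

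Members, lists and the rule for named genes were chosen with earlier results of these data known. The rule takes called members, up to 25 in an F test over depots, the 10 largest differences in a depot or age comparison and 15 in the interaction, and the highest member of each role. RAB10 is named for its level, and CKM and UCP1 as markers. Genes outside the families were taken from lists of the pathway and named after their values were seen. For arrays their number limits the precision.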

Additional observations from a re-analysis of the deposited data

Results flagged for a closer look

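The 17 members called in more than 1 F test, or called with a wide range between depots, were looked at by array. In them 170 groups of 4 or 5 arrays were searched for a single array far from the rest by Dixon's test. Other members with array values above, such as ARF5 and RAB7A, were not searched. Chance flags about 1 of 20 groups, and 21 were found. Most were genes with 1 value shared by many arrays. VAMP4 stood at 4.91 in perirenal replicate I at 28 days, at 4.80 in omental replicate G and at 5.26 in subcutaneous replicate G at 7 days, while the other arrays of these groups lay at 4.89 to 4.90. RAB28 stood at 2.91 in epicardial replicate J and at 2.49 in perirenal replicate K and sternal replicate O at 28 days, and at 3.12 in omental replicate E and 3.02 in sternal replicate F at 7 days. VPS13D stood at 2.49 in sternal replicate I at 28 days, and at 3.68 in perirenal replicate A, 3.66 in sternal replicate D and 2.85 in subcutaneous replicate G at 7 days. ARF4 stood at 10.48 in omental replicate N and 9.77 in subcutaneous replicate I at 28 days, and at 9.61 in subcutaneous replicate A at 7 days. RAB1A stood at 10.45 and STX17-DT at 6.15 in omental replicate N at 28 days, VPS54 at 6.71 in subcutaneous replicate H at 28 days and RAB5C at 6.58 in omental replicate D at 7 days. RAB2A stood at 4.09 in omental replicate O at 28 days and at 3.47 in sternal replicate B at 7 days. Omental replicate N at 28 days was the far array for 3 of these genes.

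The change between 28 and 7 days differed between depots for 9 members in the interaction test of limma. The highest and lowest change lay 1.62 apart for RAB2A (adjusted p = 0.00439), 1.12 for RAB24 (adjusted p = 0.012), 0.90 for SNX2 (adjusted p = 0.00671), 0.89 for VPS28 (adjusted p = 0.0383) and 0.86 for VPS54 (adjusted p = 0.00532). They lay 0.80 apart for ARF6 (adjusted p = 0.0449), 0.60 for VPS13D (adjusted p = 0.0391), 0.48 for RAB28 (adjusted p = 0.0405) and 0.41 for VAMP4 (adjusted p = 0.0127). RAB2A and SNX2 were also called after quantile normalization.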

How the results depend on the processing

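Of 185 called differences of members, 83 kept their call whichever 1 array was left out. After quantile normalization 65 kept it and 12 turned sign, without the sternal or subcutaneous arrays whose CKM exceeded 4 it was 103 and 1, and a trended and robust prior ended 26 calls. The number of members lower in sternal fat at 28 days was 38, and 2 after quantile normalization, 19 with probe sets averaging at least 4 and 11 without the arrays with CKM above 4, while those higher there were 3, 13 and, with the filter on the mean, 0. Calls there in either direction covered 9.3% of all probe sets after quantile normalization and 9.81% without the CKM arrays. With the filter they covered 60.6% of the probe sets that passed it. Members differing between depots at 28 days numbered 32 of 131. With that filter they were 19 of the 28 members tested, beside 66.7% of the probe sets that passed it. Without the filter 18 of these 28 were called. Without the arrays with CKM above 4 they were 21, beside 11.3% of all probe sets. Summed over the 5 depots, calls against the other depots numbered 59 at 28 days, and 31 after quantile normalization. They were 36 with the filter and 28 without the CKM arrays. At 7 days they were 16, and 28 with all 49 arrays in 1 fit. Changes with age, summed likewise, numbered 56, and 34 after quantile normalization. They were 36 with the filter and 26 with only the ages of 1 depot in the fit. No share of all probe sets was taken for these sums, and the filter tested 28 members in each depot. Members called in perirenal fat at 7 days were 8, then 3 beside 2.66% (quantile normalization) and 5 of 28 beside 16.3% (filter). Members higher at 28 days in omental fat were 24, then 4 beside 3.84% and 15 of 28. Under the filter 39.7% of the probe sets were called there in either direction, and 11 of these 28 members were higher without it. The interaction called 9, and 5 both after quantile normalization (beside 5.25%) and with the trended prior (beside 8.18%). The filter tests fewer genes, and for the other settings the cause was not tested.

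After quantile normalization the sternal difference at 28 days turned to 0.12 for RAB11A, 0.19 for COPE and SNX1, 0.13 for VPS72 and VPS29, 0.23 for VAMP4, 0.015 for RAB35 and 0.011 for SNX33, and the omental change with age to -0.0373 for VPS72, -0.0524 for VAMP4, -0.00998 for SNX1 and -0.0916 for VPS51. VPS36 in sternal fat turned to -0.0298 without the CKM arrays. Leaving out 1 array gave 8 to 14 members differing at 7 days (8 without epicardial replicate G or perirenal replicate A), 26 to 33 at 28 days, 10 to 22 and 44 to 59 against the other depots at 7 and 28 days, 49 to 59 with age and 6 to 12 in the interaction. It gave 23 to 38 lower and 1 to 3 higher in sternal fat, 7 to 14 higher in omental fat at 28 days (7 without replicate N), 5 to 8 in perirenal fat (5 without replicate A or D) and 19 to 28 higher with age in omental fat.

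The replicate numbers were not taken as pairs, since the labels do not say that a number is an animal, though the study takes all depots of an age from the same lambs. Deviations from the group means of same-numbered arrays correlated by a median of 0.0571 at 28 days and 0.0463 at 7 days, above 0.1 in 12 of 39 and 6 of 33 pairs, more often than those of different numbers (median -0.00896 and -0.0108, 12 of 211 and 15 of 197 pairs). Whether numbers mark lambs is therefore not settled. With the number as a fixed replicate block 6 members differed between depots at 7 days, beside 6.6% of all probe sets. They were VPS28, RAB24, RAB1B, SNX4, RAB2A and SNX25, and 81 of 120 depot differences kept their call. Calls lost at 7 days include STX8 in sternal fat (-0.79, adjusted p = 0.112) and perirenal fat (0.59, adjusted p = 0.119), SNX4 in subcutaneous fat (0.64, adjusted p = 0.0506) and ARF4 in epicardial fat (adjusted p = 0.0882), and at 28 days RAB7A and RAB1B in perirenal fat (adjusted p = 0.0919 and 0.113), COPE in subcutaneous fat (adjusted p = 0.0818) and VPS35 and VPS29 in sternal fat (adjusted p = 0.0831 and 0.0624). With the fixed block no member was called in omental, sternal or subcutaneous fat at 7 days, beside 1.46%, 0.623% and 1.14% of all probe sets. As a random block all 185 differences kept their call. The correlation estimated for that block was 0.0106 over all 49 arrays, 0.0102 at 28 days and 0.00126 at 7 days. With correlations so low this fit hardly differs from the one without a block, so it says little about pairing. With 82.7% of all values below 4, differences between values near the lowest signal could not be measured well.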
